A study of Mus musculus with 10 samples.

Results

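Intermediate filament genes were followed across mouse meningioma-like tumors: vimentin, nestin, synemin, 4 simple keratins and 2 lamins. The 9 genes (VIM, NES, SYNM, KRT7, KRT8, KRT18, KRT19, LMNA and LMNB1) were chosen by name as filaments of mesenchymal, progenitor and simple epithelial cells and of the nucleus. All 9 were among the 16895 genes listed for each of 10 libraries, under human-style capital symbols. The tumors carried NLS-2SA-YAP1 (n = 3) or YAP1-MAML2-v2 (n = 7). YAP1 is the coactivator restrained by the Hippo pathway, and NLS-2SA-YAP1 is taken as the constitutively active YAP1 of the series title. YAP1-MAML2 fuses YAP1 with MAML2, which acts as a coactivator in Notch signaling. Both were carried by RCAS, an avian retroviral vector, in DF1 chicken fibroblasts. These cells were placed in the subarachnoid space of mouse pups aged p0 to p3. Every mouse was Cdkn2a null and expressed tv-a, the receptor for RCAS, under Nestin control, and the RNA of the nestin gene is among those measured here. By source region there were 3 extra axial libraries, 6 extra cranial libraries and 1 intra ventricular library. The NLS-2SA-YAP1 tumors were 1 extra axial and 2 extra cranial, and the YAP1-MAML2-v2 tumors were 2 extra axial, 4 extra cranial and 1 intra ventricular. The labels do not say whether each tumor came from its own mouse, so p-values measure the spread between libraries. The file names of 2 libraries, YAP1-MAML2-v2 replicates 6 and 7, share a number, and whether these came from 1 mouse is not stated. All libraries were counted singly, and edgeR called 0 members with either of the 2 left out. No normal meninges, brain or skin was analysed here.

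Intermediate filaments are rope-like polymers that give a cell and its nucleus mechanical strength, and most are typical of a tissue. Vimentin fills mesenchymal cells, nestin is typical of neural and muscle progenitors, and synemin joins the filaments of other proteins. Simple keratins polymerise only as pairs of a type II keratin (KRT7 or KRT8) with a type I keratin (KRT18 or KRT19). Lamins line the inner face of the nuclear envelope. LMNA encodes lamins A and C, which stiffen the nucleus, and LMNB1 encodes lamin B1, which is abundant in proliferating cells.

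Totals of the deposited values were 28001143 to 44544314 per library, and the sequencing depth is unknown because the values do not behave as plain read counts. Levels are given as CPM, counts per 1e6 of the TMM-scaled library total, from the deposited values. Each library listed between 4.54 and 6.82 times as many genes at 1 as at 2. In all, 1662 genes held 0 or 1 in at least 1 library while exceeding 100 elsewhere, among them 9.75% of the 13707 genes tested. No fold change is read from such a gene. Of the 90 member values, 20 were 0 or 1, all in the 4 keratins, so folds are given for VIM, NES, SYNM, LMNA and LMNB1 only. The filter on low values kept 8 members, and KRT8 did not pass it. The labels name DF1 as the cell type, but the values are listed for mammalian symbols. COL1A1, a collagen of fibroblasts and of the meninges, had 1644, 6528 and 8843 CPM in NLS-2SA-YAP1 tumors, against 321 to 5452 CPM in YAP1-MAML2-v2 tumors. The meningeal fibroblast list (10 genes, with COL1A1) had a mean log2 CPM of 7.11 to 7.89 in NLS-2SA-YAP1 tumors, against 4.10 to 7.72 in YAP1-MAML2-v2 tumors. Between constructs 7 of its genes had a positive and 3 a negative fitted sign, and edgeR called 0 of them.

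VIM was the most abundant member in each library, by a wide margin. Per kilobase of exonic sequence it averaged 1697 CPM over the 10 libraries and ranged from 404 to 3495, highest of the 9 members in 10 of 10 libraries. LMNA came next by mean level, at 67.0 CPM per kilobase with a range of 12.5 to 125, which did not reach the range of VIM. KRT18 averaged 54.2 CPM per kilobase, but its median was 0.0223, because its values fell into a high and a near-zero set. SYNM averaged 17.1, KRT19 16.6, NES 7.21 and LMNB1 5.16 CPM per kilobase. The ranges of these 4 overlapped one another and that of LMNA. KRT7 averaged 0.217 and KRT8 0.00128 CPM per kilobase, and the range of KRT7 still overlapped that of LMNB1. By mean CPM without regard to length, VIM was rank 3 of 16895 genes and took 0.182 to 1.53% of each library's total. LMNA was rank 350.

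**Figure D1:**
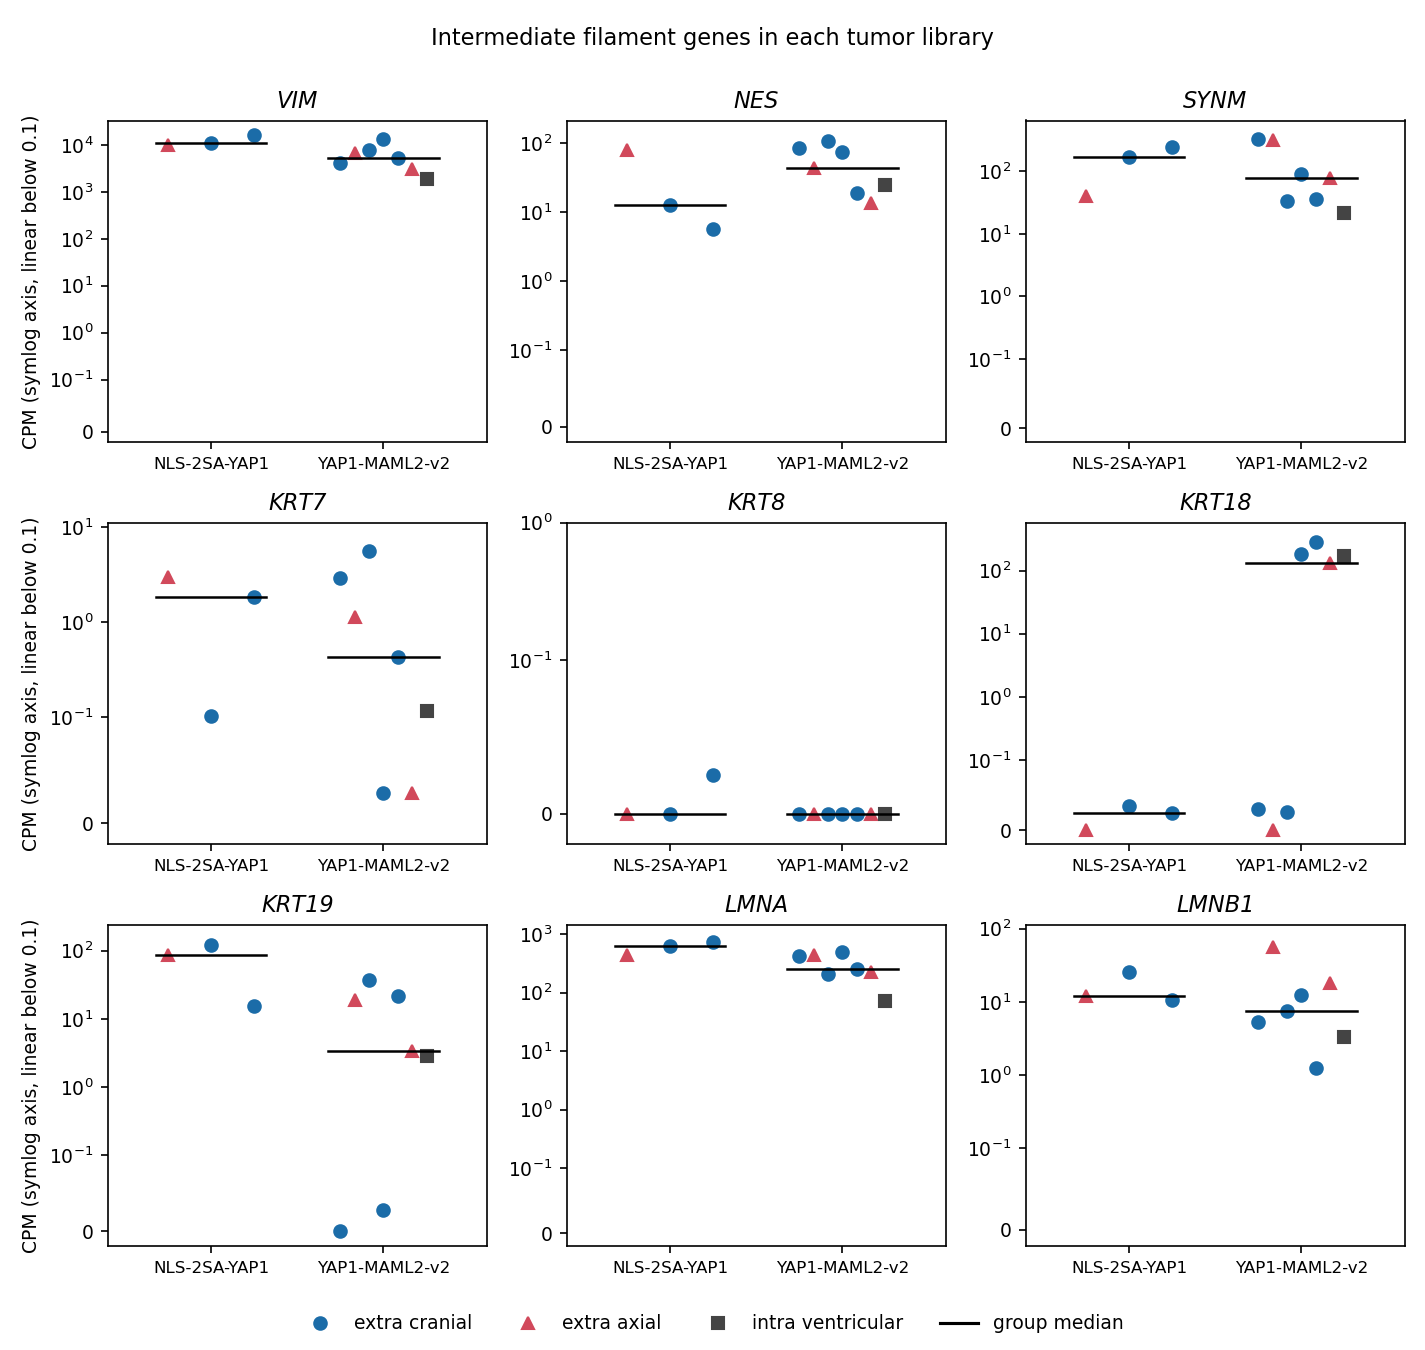
Each panel plots 1 gene, with CPM on a symlog axis that is linear below 0.1, NLS-2SA-YAP1 tumors at the left and YAP1-MAML2-v2 tumors at the right. Points are single libraries in the order of their replicate numbers, marker shapes give the source region and bars are group medians. VIM lies between 1917.5 and 16577 CPM in all 10 libraries, whereas KRT18 is at 0 or 1 deposited counts in 6 libraries and between 134 and 289 CPM in 4.

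The first comparison set NLS-2SA-YAP1 tumors against YAP1-MAML2-v2 tumors, the 2 forms of YAP1 named in the series title. VIM and LMNA had the higher mean in NLS-2SA-YAP1 tumors, and NES the lower, but no member passed the test. With construct and region as terms in edgeR's quasi-likelihood test, 0 of 8 members were called at an adjusted p under 0.05. The same fit called 2 of 13707 genes, 0.0146%. At an unadjusted p under 0.05 it held 1788 genes and 1 member, KRT18. DESeq2 called 685 genes, 5.30% of those with an adjusted p, and 1 member, again KRT18. limma-voom with sample quality weights called 0 members and 0.693% of genes, and limma on log2 CPM called 0 members and 0.0292% of genes. The members at an unadjusted p under 0.05 changed with the method. They were KRT18 and LMNA with DESeq2, beside 17.3% of genes. With limma-voom they were VIM, NES, LMNA and KRT19 (19.7% of genes), and with limma on log2 CPM LMNA (13.9%). Of the 5 members with folds 4 had a positive and 1 a negative fitted sign, with a median log2 fold change of 0.70, beside -0.05 over the 11876 tested genes that likewise had no value of 0 or 1. The groups overlapped in all 8 tested members, where 6.73% of all genes tested had groups that did not overlap. The file names of YAP1-MAML2-v2 replicates 4 to 7 share a tag that those of replicates 1 to 3 and of all NLS-2SA-YAP1 libraries lack, and the labels do not say what it marks. Construct is therefore partly confounded with this tag. With the tag as a term edgeR called 1 gene and 0 members. In the 6 libraries without it, 3 of each construct, edgeR called 2 genes and 0 members, and the log2 fold changes of VIM and LMNA were 1.00 and 0.75.

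VIM (Vim, chr2:13573927-13582826, plus strand, mm10) had 10209, 11026 and 16577 CPM in NLS-2SA-YAP1 tumors, against a low of 1917.5, a median of 5160 and a high of 13672 CPM in YAP1-MAML2-v2 tumors. The NLS-2SA-YAP1 libraries all exceeded 6 of the 7 YAP1-MAML2-v2 libraries, and the exception was replicate 4, an extra cranial tumor. The means were 12604 ± 3465 CPM in NLS-2SA-YAP1 tumors (SD, n = 3) and 6096 ± 3929 CPM in YAP1-MAML2-v2 tumors (SD, n = 7). The fitted log2 fold change was 0.91 with an SE of 0.50 (edgeR adjusted p = 0.476). It was positive in 22 of 22 settings of the analysis, from 0.76 to 1.23, with an adjusted p of 0.148 to 0.702. Within extra cranial tumors VIM had 11026 and 16577 CPM with NLS-2SA-YAP1, against 4050 to 13672 CPM with YAP1-MAML2-v2. In bulk tumors, fewer cells of a type and less RNA per cell cannot be told apart. The lowest VIM value was that of the intra ventricular tumor, YAP1-MAML2-v2 replicate 7. The same library had the highest level of the astrocyte list, with a mean log2 CPM of 7.84, against 0.65 to 5.04 in the other libraries. It was also highest for the neuron (6.30), macrophage (8.05), neural progenitor (3.90) and endothelium (5.79) lists, and lowest for mesenchymal transcription factors (2.92). The part of these cell types in the VIM value was not tested.

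The RefSeq promoter of Vim is shown because Vim was the most abundant of the 9 members in every tumor. The window runs from 250 bases before to 50 bases after the annotated start (chr2:13574061-13574360, plus strand, GRCm38.p6, the assembly of mm10), and capitals mark the TATA motif. Promoters were searched on both strands for the TEAD motif GGAATG, the AP-1 motif TGANTCA, the Sp1 motif GGGCGG and the TATA motif TATAAA. The only overlapping matches in the members' windows were the 2 TATA matches of Krt8. Of 32851 RefSeq promoter windows, 14.7% held GGAATG, 7.81% TGANTCA, 35.7% GGGCGG and 13.6% TATAAA.
Vim promoter: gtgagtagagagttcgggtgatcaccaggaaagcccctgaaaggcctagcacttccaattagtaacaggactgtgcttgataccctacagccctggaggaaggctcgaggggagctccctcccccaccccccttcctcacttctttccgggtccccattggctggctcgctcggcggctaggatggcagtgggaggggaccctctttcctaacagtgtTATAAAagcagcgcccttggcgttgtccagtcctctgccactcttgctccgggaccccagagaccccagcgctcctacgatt
Windows were given for 7 of the 9 members (not for Krt19 and Lmnb1). GGAATG was in none of them, so the letters of the motif bound by the TEAD partners of YAP1 are not in these windows. GGGCGG or its complement stood 2 times in the Nes window, 4 times in the Krt7 window and 1 time in 1 of the Lmna windows, and that Lmna window also held TGANTCA 1 time.

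NES (Nes, chr3:87971078-87980451, plus strand) had 79.2, 12.6 and 5.73 CPM in NLS-2SA-YAP1 tumors, against a low of 13.4, a median of 43.8 and a high of 105 CPM in YAP1-MAML2-v2 tumors. The 2 lowest values of all were the extra cranial NLS-2SA-YAP1 tumors, while the extra axial one was the third highest of all. The means were 32.5 ± 40.6 CPM in NLS-2SA-YAP1 tumors (SD, n = 3) and 52.1 ± 36.1 CPM in YAP1-MAML2-v2 tumors (SD, n = 7). The fitted log2 fold change was -1.13 with an SE of 1.15 (edgeR adjusted p = 0.735). It was negative in 22 of 22 settings but ranged from -2.96 to -0.07, so single libraries set its size. It was -2.96 without NLS-2SA-YAP1 replicate 1, the extra axial tumor, and -0.07 without NLS-2SA-YAP1 replicate 3.

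SYNM (Synm, chr7:67730160-67759742, minus strand) encodes a large filament protein that cannot polymerise alone and joins vimentin or desmin. It had 40.8, 169 and 245 CPM in NLS-2SA-YAP1 tumors, against a low of 21.4, a median of 79.0 and a high of 326 CPM in YAP1-MAML2-v2 tumors. Both groups spanned low and high tumors. The means were 152 ± 103 CPM in NLS-2SA-YAP1 tumors (SD, n = 3) and 129 ± 134 CPM in YAP1-MAML2-v2 tumors (SD, n = 7). The fitted log2 fold change was 0.04 with an SE of 0.93 (edgeR adjusted p = 0.995). Synm overlaps Ttc23 on the other strand, and no source used here gives the strand setting of the counting, so reads of the 2 genes may not be separated.

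LMNA (Lmna, chr3:88480147-88509956, minus strand) had 447, 626 and 732 CPM in NLS-2SA-YAP1 tumors, against a low of 73.2, a median of 254 and a high of 487 CPM in YAP1-MAML2-v2 tumors. The 2 extra cranial NLS-2SA-YAP1 tumors were above every other library. The means were 602 ± 144 CPM in NLS-2SA-YAP1 tumors (SD, n = 3) and 301 ± 151 CPM in YAP1-MAML2-v2 tumors (SD, n = 7). The fitted log2 fold change was 0.81 with an SE of 0.38 (edgeR adjusted p = 0.402) and positive in 22 of 22 settings, from 0.68 to 1.01, with an adjusted p of 0.166 to 0.698. DESeq2 gave an unadjusted p of 0.0458 and an adjusted p of 0.264.

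LMNB1 (Lmnb1, chr18:56707813-56753424, plus strand) had 11.9, 25.8 and 10.6 CPM in NLS-2SA-YAP1 tumors, against a low of 1.25, a median of 7.62 and a high of 56.8 CPM in YAP1-MAML2-v2 tumors. The YAP1-MAML2-v2 group enclosed the NLS-2SA-YAP1 group on both sides. The means were 16.1 ± 8.42 CPM in NLS-2SA-YAP1 tumors (SD, n = 3) and 14.95 ± 19.3 CPM in YAP1-MAML2-v2 tumors (SD, n = 7). The fitted log2 fold change was 0.70 with an SE of 0.85 (edgeR adjusted p = 0.779), and -0.17 without NLS-2SA-YAP1 replicate 2.

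**Figure D2:**
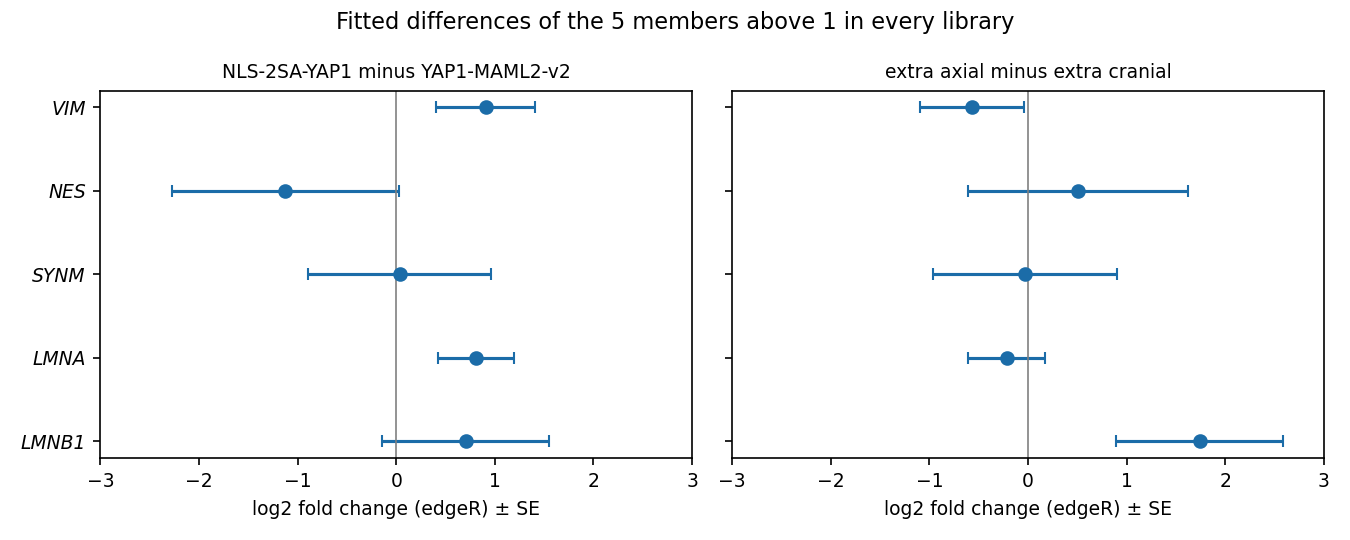
Points are log2 fold changes from edgeR with SE bars for the 5 members without a value of 0 or 1, as NLS-2SA-YAP1 minus YAP1-MAML2-v2 at the left and extra axial minus extra cranial at the right. VIM (0.91) and LMNA (0.81) lie farthest above 0 between constructs, followed by LMNB1 (0.70). LMNB1 (1.74) lies farthest above 0 between regions, and none had an adjusted p under 0.05.

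In the deposited values the partners KRT8 and KRT18 were not found together. KRT18 was high in 4 tumors while KRT8 was at 0 in the same tumors. KRT8 (Krt8, chr15:101996698-102004482, minus strand) was listed at 0 in 9 libraries and at 1 in NLS-2SA-YAP1 replicate 3. KRT18 (Krt18, chr15:102028180-102032027, plus strand) was listed at 0, 1 and 1 in NLS-2SA-YAP1 tumors, against 1, 0 and 1 in YAP1-MAML2-v2 replicates 1 to 3 and 6490, 8764, 4773 and 7274 in replicates 4 to 7. In CPM replicates 4 to 7 had 184, 289, 134 and 172. They include both an extra axial and the intra ventricular tumor beside 2 extra cranial ones, so neither region nor construct alone divides high from near-zero libraries. These 4 libraries are those whose file names carry the tag described above. KRT18 level and this tag cannot be told apart. An edgeR fit with the tag as a further term was added after the data were seen. There the tag takes up the whole division of KRT18 into high and near-zero libraries. Its adjusted p of 0.996 for KRT18 between constructs therefore decides nothing. Of 479 genes with 0 or 1 in 1 set of libraries and over 100 in all the rest, KRT18 was the only 1 with this set of high libraries. The edgeR adjusted p of KRT18 between constructs was 0.302 and that of DESeq2 0.000517, and no fold is read from values of 0 and 1.

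Krt8 and Krt18 lie 23.7 kb apart on mouse chromosome 15, and their promoter windows are shown because the 2 neighbours had opposite values in those tumors. Capitals mark TATA motif matches (2 overlapping matches on opposite strands in Krt8, none in Krt18). The windows are chr15:102004293-102004592 on the minus strand and chr15:102027966-102028265 on the plus strand of GRCm38.p6, from RefSeq.
Krt8 promoter: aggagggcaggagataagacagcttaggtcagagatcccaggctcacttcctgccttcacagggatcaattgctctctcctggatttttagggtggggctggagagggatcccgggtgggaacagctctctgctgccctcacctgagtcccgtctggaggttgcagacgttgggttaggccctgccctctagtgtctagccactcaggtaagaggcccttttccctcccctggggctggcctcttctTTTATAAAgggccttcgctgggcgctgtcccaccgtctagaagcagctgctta
Krt18 promoter: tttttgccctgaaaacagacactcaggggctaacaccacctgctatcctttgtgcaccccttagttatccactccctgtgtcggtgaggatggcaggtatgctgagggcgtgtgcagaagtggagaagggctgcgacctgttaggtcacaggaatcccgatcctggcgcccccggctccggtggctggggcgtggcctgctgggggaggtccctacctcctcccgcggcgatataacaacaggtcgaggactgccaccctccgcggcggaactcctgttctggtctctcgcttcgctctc
Krt8 also has a processed pseudogene on another chromosome, and the handling of reads shared with it is not stated. Krt8 is overlapped by Gm36026 and Krt7 by Gm671, each on the other strand, so with the strand setting unknown their reads may not be separated either.

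KRT19 (Krt19, chr11:100140810-100148665, minus strand), a type I keratin of ducts and glands, was listed at 3623, 3549 and 609 in NLS-2SA-YAP1 tumors. In YAP1-MAML2-v2 tumors it was listed at 0, 731, 1471, 1, 650, 122 and 119 in replicate order. In CPM these were 86.7, 121 and 15.3 with NLS-2SA-YAP1, against a low of 0, a median of 3.43 and a high of 37.2 with YAP1-MAML2-v2. The groups overlapped through NLS-2SA-YAP1 replicate 3, and the edgeR adjusted p was 0.564. In deposited values KRT19 was over 100 both in tumors with KRT18 over 100 and in tumors with KRT18 listed at 0 or 1. KRT7 (Krt7, chr15:101411043-101430313, plus strand), its type II partner in ducts, was listed at 126, 3 and 74 in NLS-2SA-YAP1 tumors, against 98, 44, 223, 1, 13, 1 and 5 in YAP1-MAML2-v2 tumors. It had at most 5.64 CPM, and its edgeR adjusted p was 0.980. Summed over the 4 simple keratins the level was 89.7, 121 and 17.2 CPM in NLS-2SA-YAP1 tumors, against 2.95 to 311 CPM in YAP1-MAML2-v2 tumors.

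**Figure D3:**
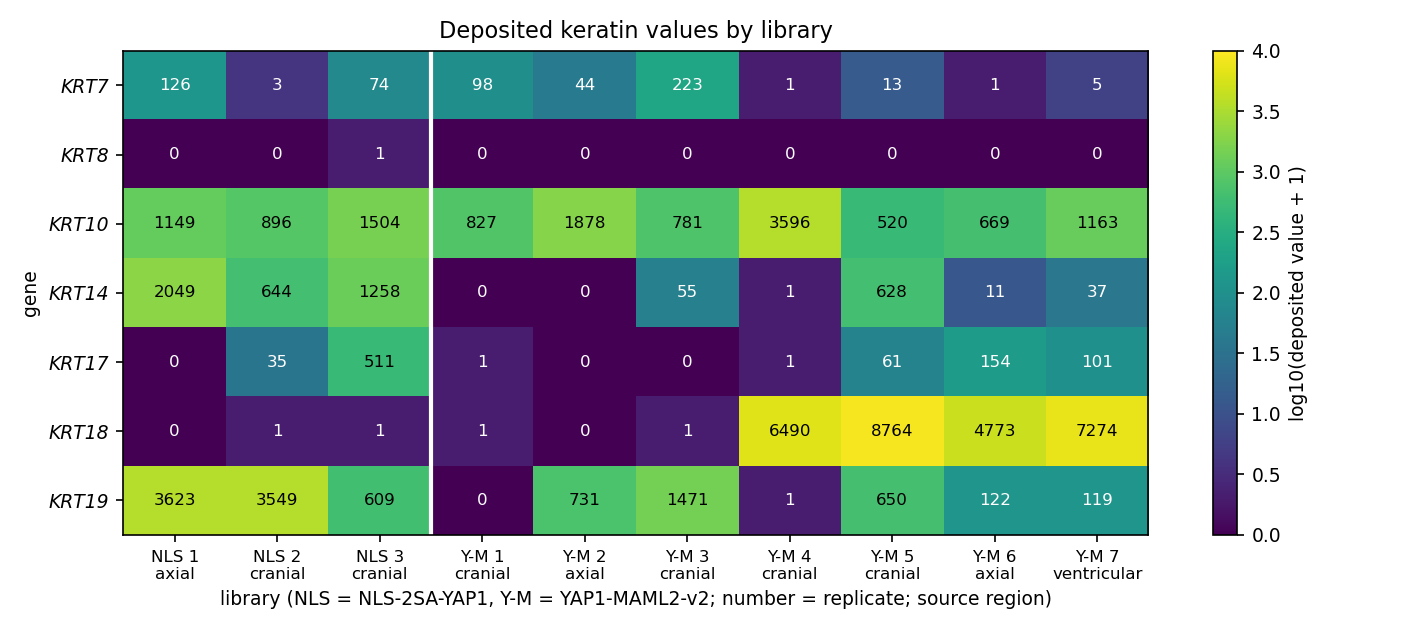
Rows are keratin genes and columns libraries, with NLS-2SA-YAP1 tumors left of the white line and YAP1-MAML2-v2 tumors right of it, and colour gives log10 of the deposited value plus 1. Numbers are the deposited values, and KRT18 reads 4773 to 8764 in YAP1-MAML2-v2 replicates 4 to 7 and 0 or 1 elsewhere, while KRT8 is at 0 or 1 in every column.

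In the gene lists that follow, sign counts and medians take every tested gene, including those with a value of 0 or 1. Among 25 other keratins, 5 were tested, with 4 positive and 1 negative by fitted sign between constructs and 0 called by edgeR or DESeq2. KRT10, a keratin of differentiating epidermis, was listed at 896 to 1504 in NLS-2SA-YAP1 tumors, against 520 to 3596 in YAP1-MAML2-v2 tumors. KRT14, a keratin of basal epidermis, was listed at 2049, 644 and 1258 in NLS-2SA-YAP1 tumors, against 0, 0, 55, 1, 628, 11 and 37 in YAP1-MAML2-v2 tumors. All NLS-2SA-YAP1 values of KRT14 exceeded all YAP1-MAML2-v2 values, but 3 of those were 0 or 1 and the edgeR adjusted p was 0.471. Of 14 simple epithelium genes 6 were tested, with 3 higher and 3 lower and 0 called by either tool. The summed level of all 14 was 341 to 1080 CPM in NLS-2SA-YAP1 tumors, against 84.8 to 1080 CPM in YAP1-MAML2-v2 tumors. CDH1, which encodes the epithelial adhesion protein E-cadherin, had 244 to 876 CPM in NLS-2SA-YAP1 tumors, against 30.9 to 631 CPM in YAP1-MAML2-v2 tumors. EPCAM, a surface protein of simple epithelia, had at most 4.33 CPM in any library, and GRHL2, a transcription factor of epithelia, was at 0 or 1 in all 10.

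Other filament genes had few calls between constructs. Of 8 tested type III and IV filament genes, 3 had a positive and 5 a negative fitted sign, with 0 called by edgeR and DES, the muscle filament desmin, called by DESeq2. DES had 5.58, 1.54 and 22.6 CPM in NLS-2SA-YAP1 tumors, against 0.0237 to 1.95 CPM in YAP1-MAML2-v2 tumors. It was at a deposited 0 or 1 in 2 libraries, so no fold is read from its call. The skeletal muscle list that also holds DES had a summed level of 10.1 to 423 CPM in NLS-2SA-YAP1 tumors, against 2.17 to 94.6 CPM in YAP1-MAML2-v2 tumors. The part of muscle RNA in the DES values was not tested. GFAP, the astrocyte filament, had 1204 CPM in the intra ventricular tumor and at most 39.9 CPM elsewhere. Of 10 filament linkers 7 were higher and 3 lower, with 0 called by edgeR and EPPK1, the keratin-binding epiplakin, called by DESeq2. EPPK1 had 13.3, 50.8 and 36.4 CPM in NLS-2SA-YAP1 tumors, against 0 to 4.38 CPM in YAP1-MAML2-v2 tumors. It was at a deposited 0 or 1 in 3 libraries, so no fold is read from its call either. PLEC, which encodes plectin and ties vimentin to other structures, had 446, 1227 and 1213 CPM in NLS-2SA-YAP1 tumors, against 360 to 1692 CPM in YAP1-MAML2-v2 tumors.

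Of 17 nuclear lamina and envelope genes 10 had a positive and 7 a negative fitted sign between constructs, with a median log2 fold change of 0.25 and 0 called by edgeR or DESeq2. LMNB2, the other B-type lamin, had 51.2, 75.6 and 71.1 CPM in NLS-2SA-YAP1 tumors, against 23.6 to 107 CPM in YAP1-MAML2-v2 tumors. LBR, the lamin B receptor of the inner membrane, had 42.3 to 84.2 CPM in NLS-2SA-YAP1 tumors, against 9.64 to 73.3 CPM in YAP1-MAML2-v2 tumors. SUN2, which couples lamins to the cytoskeleton, had 27.4, 55.3 and 65.6 CPM in NLS-2SA-YAP1 tumors, against 40.7 to 152 CPM in YAP1-MAML2-v2 tumors. Of 6 lamin processing genes 2 were higher and 4 lower, with 0 called by either tool. Of 7 mesenchymal transcription factors 3 were higher and 4 lower, with 0 called by edgeR and ZEB2 called by DESeq2. ZEB2, a repressor of epithelial genes, had 41.3, 81.6 and 88.8 CPM in NLS-2SA-YAP1 tumors, against 81.95 to 273 CPM in YAP1-MAML2-v2 tumors.

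Markers of other cell types were counted in the same way between constructs. edgeR called 0 genes in each of the lists for stratified epithelium, choroid plexus and ependyma, skeletal muscle, neural progenitors, astrocytes, neurons, endothelium, pericytes and smooth muscle, and macrophages. All 7 tested skeletal muscle genes had a positive fitted sign, with a median log2 fold change of 2.469. All 4 tested choroid plexus and ependyma genes were also positive, with a median of 3.695. The other lists held genes of both signs. The part of muscle or choroid plexus RNA in the member values was not tested. DESeq2 called DES, named above, and FOLR1, a folate receptor of the choroid plexus. FOLR1 had 0, 19.1 and 0.0251 CPM in NLS-2SA-YAP1 tumors, against 0 to 30.8 CPM in YAP1-MAML2-v2 tumors, and it was at a deposited 0 or 1 in 6 libraries, so no direction is read from its call. DESeq2 also called ACTA2 and TAGLN, which encode contractile proteins of smooth muscle and myofibroblasts. ACTA2 had 226, 193 and 209 CPM in NLS-2SA-YAP1 tumors, against 40.1 to 93.9 CPM in YAP1-MAML2-v2 tumors. TAGLN had 927, 944 and 651 CPM in NLS-2SA-YAP1 tumors, against 105 to 430 CPM in YAP1-MAML2-v2 tumors. Of the 8 genes of the pericyte and smooth muscle list, these 2 had a positive and the other 6 a negative fitted sign. The median log2 fold change of the list was -0.68. The list as a whole had a summed level of 1400 to 1910 CPM in NLS-2SA-YAP1 tumors, against 672 to 2570 CPM in YAP1-MAML2-v2 tumors. Its part in the VIM and LMNA values was not tested.

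Extra axial tumors were then compared with extra cranial tumors. LMNB1 had the largest region difference of the 5 members with folds, and none passed the test. edgeR called 0 of 8 members and 0 of 13707 genes (0%), with 413 genes and 0 members at an unadjusted p under 0.05. DESeq2 called 0 members and 31 genes, 0.230%, and both limma fits called 0 genes. Of the 5 members with folds 2 had a positive and 3 a negative fitted sign, with a median log2 fold change of -0.03, beside 0.01 over the 11876 tested genes with no value of 0 or 1. The groups overlapped in all 8 tested members, where 0.890% of all genes tested did not overlap.

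LMNB1 had 11.9, 56.8 and 17.9 CPM in extra axial tumors, against a low of 1.25, a median of 9.12 and a high of 25.8 CPM in extra cranial tumors. Both YAP1-MAML2-v2 extra axial tumors, at 56.8 and 17.9 CPM, were above all 4 YAP1-MAML2-v2 extra cranial tumors, at 1.25 to 12.5 CPM. The fitted log2 fold change was 1.74 with an SE of 0.84 (edgeR adjusted p = 1, unadjusted p = 0.0667). It was positive in 21 of 21 settings, from 0.64 to 2.48, and was 0.64 without YAP1-MAML2-v2 replicate 2. VIM averaged 6719 ± 3543 CPM in extra axial tumors (SD, n = 3) and 9735 ± 4909 CPM in extra cranial tumors (SD, n = 6), a log2 fold change of -0.56 (SE 0.53, edgeR adjusted p = 1). LMNA averaged 371 ± 129 CPM in extra axial tumors and 454 ± 204 CPM in extra cranial tumors, a log2 fold change of -0.22 (SE 0.39, edgeR adjusted p = 1). The log2 fold changes of NES (0.51, SE 1.11) and SYNM (-0.03, SE 0.93) were within their errors.

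Whether the constructs differed unequally in the 2 regions was tested as an interaction in the 9 extra axial and extra cranial libraries. The mean of NES was higher in the extra axial region with NLS-2SA-YAP1 and lower there with YAP1-MAML2-v2, where the regions overlapped. With NLS-2SA-YAP1 it had 79.2 CPM in the extra axial tumor, against 12.6 and 5.73 CPM in the extra cranial tumors. With YAP1-MAML2-v2 it had 43.8 and 13.4 CPM in extra axial tumors, against 85.2, 105, 74.0 and 18.9 CPM in extra cranial tumors. The interaction was 4.43 on the log2 scale (SE 1.25, edgeR unadjusted p = 0.00676, adjusted p = 0.658), and DESeq2 gave 4.44 with an adjusted p of 0.0425. It was positive in 11 of 11 settings, from 3.84 to 5.60, with an adjusted p of 0.0425 to 0.999. The NLS-2SA-YAP1 side rests on 1 extra axial tumor, replicate 1. edgeR called 0 of 8 members and 1 gene for the interaction (0.00741% of genes), DESeq2 called NES and 204 genes (1.59%), and limma on log2 CPM called 0 members and 0.0297% of genes. The interactions of LMNB1 (-3.09, SE 1.6) and SYNM (-3.04, SE 1.78) had edgeR adjusted p-values of 0.741 and 0.759.

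LMNA and LMNB1 mark different properties of the lamina, so their ratio within each library was compared, which does not depend on library scaling. LMNA exceeded LMNB1 in CPM in every library, by 37.7, 24.3 and 68.8 times in NLS-2SA-YAP1 tumors, against 7.83 to 203 times in YAP1-MAML2-v2 tumors. The log2 ratio was 5.31 ± 0.76 in NLS-2SA-YAP1 tumors (n = 3) and 5.01 ± 1.59 in YAP1-MAML2-v2 tumors (n = 7), with p = 0.767 by an exact two-sided permutation test. It was 3.95 ± 1.17 in extra axial tumors (n = 3) and 5.79 ± 1.14 in extra cranial tumors (n = 6), with p = 0.0714 by the same exact permutation test. Adjusted over the 2 tests the exact permutation p of the region difference was 0.143, and the smallest p that 3 against 6 libraries allow is 0.0238. Within YAP1-MAML2-v2 the log2 ratio was 2.97 and 3.63 in extra axial tumors, against 4.79 to 7.66 in extra cranial tumors. Within NLS-2SA-YAP1 the extra axial tumor had 5.24, between the extra cranial tumors at 4.60 and 6.10.

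LMNB1 followed the cell cycle list (15 genes such as MKI67, TOP2A and CDK1, without LMNB1). Their mean log2 CPM was 3.32 to 3.75 in NLS-2SA-YAP1 tumors, against 0.29 to 5.08 in YAP1-MAML2-v2 tumors. Over 10 libraries Pearson's r was 0.96 (permutation p = 5e-05, adjusted 0.00025 over 5 relations) and Spearman's rho 0.88 (permutation p = 0.00156, adjusted 0.0078). Without YAP1-MAML2-v2 replicates 5 and 2, which lie farthest from the median, r was 0.86 over 8 libraries. Within YAP1-MAML2-v2 r was 0.97 (n = 7), and within extra cranial tumors 0.95 (n = 6). This relation was added after the data were seen. In extra axial tumors all 15 cell cycle genes were higher by fitted sign, the sign of LMNB1, with 0 called by edgeR or DESeq2. Their median log2 fold change was 1.33, beside -0.01 over the 13707 genes tested. The list mean was 5.08, 3.16 and 3.515 in extra axial tumors, against 0.29 to 3.75 in extra cranial tumors. Only YAP1-MAML2-v2 replicate 2 lay above the extra cranial range, so the regions overlapped. The 15 signs come from the same libraries and are not independent of one another. The skeletal muscle list was as one-sided between regions, with 0 positive and 7 negative signs and a median log2 fold change of -2.79. Of the 4 relations among members that could be computed, LMNA with LMNB1 had r = 0.50 (permutation p = 0.143, adjusted 0.357). VIM with SYNM had r = 0.36, VIM with NES -0.03 and NES with SYNM -0.17, each with an adjusted permutation p above that of the lamins.

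**Figure D4:**
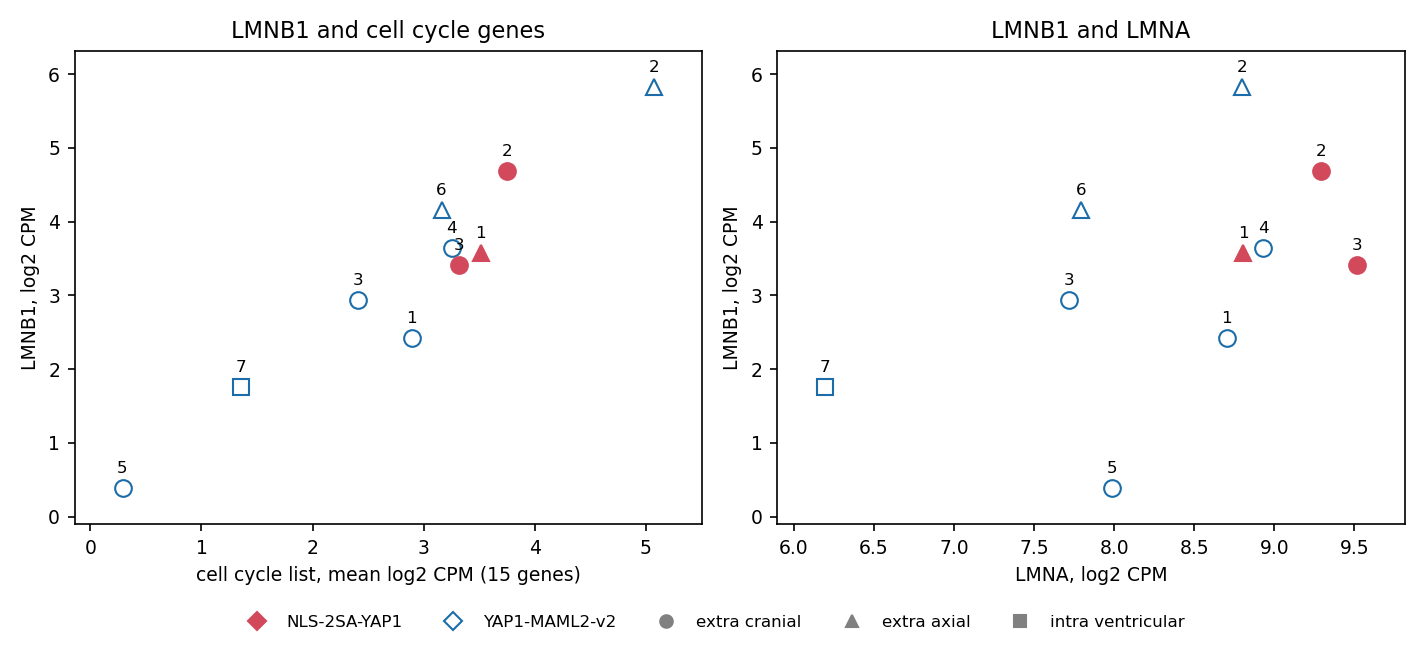
Each point is 1 library, with the log2 CPM of LMNB1 on the vertical axis against the mean log2 CPM of the 15 cell cycle genes at the left and the log2 CPM of LMNA at the right, and numbers are replicates. LMNB1 is higher where the cell cycle mean is higher over all 10 libraries (r = 0.96), and its r with LMNA is 0.50.

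For the 5 members with folds, the most similar genes over the 10 libraries were taken by Pearson's r of log2 CPM among 11875 tested genes with no 0 or 1, as a description. LMNB1 was closest to AURKB (0.98), a mitotic kinase on the cell cycle list, DLGAP5 (0.98), a spindle protein, and CENPE (0.97), a kinetochore motor. LMNA was closest to LOXL4 (0.98), a collagen cross-linking oxidase, FSTL3 (0.98), an inhibitor of activin, and MFAP5 (0.97), a microfibril protein of the matrix. FSTL3 ranged from 5.40 to 183 CPM and MFAP5 from 0.592 to 879 CPM. VIM was closest to NME2 (0.95), a nucleoside diphosphate kinase, PDCL3 (0.93) and THAP4 (0.90). SYNM was closest to PLCE1 (0.96), a phospholipase, EDA (0.93), the ectodysplasin ligand, and GALNT1 (0.92), which starts mucin-type O-glycans. NES was closest to ZSWIM7 (0.92), MDFI (0.90), an inhibitor of myogenic factors, and TTLL1 (0.90), a tubulin-modifying enzyme.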

How the data were processed

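RNA from 10 frozen mouse tumors was made into stranded mRNA libraries, pooled and sequenced, per the labels' protocols. The authors deposited 1 value per gene and library. Reads were counted with HTSeq against mm10, per the submitters' processing notes, and no source used here gives the aligner, annotation, strand setting or later steps. The deposited values are whole numbers with an excess of 1 over 2, so they were treated as estimated counts, not raw counts, and needed no rounding. Of the symbols, 15475 matched GENCODE M21 ignoring case, which gave coordinates and exonic lengths.

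Construct, replicate and region came from the labels. Genes were kept with filterByExpr by construct at a minimum count of 10 (13707 genes). Differences were tested mainly by edgeR (version 4.0.16 in R 4.3.3; quasi-likelihood, TMM, robust) with construct and region in all 10 libraries, with Benjamini-Hochberg adjustment over all genes and a threshold of 0.05. The intra ventricular library had its own term. Folds are extra axial minus extra cranial, and NLS-2SA-YAP1 minus YAP1-MAML2-v2. The interaction was fitted without the intra ventricular library. DESeq2 1.42.0, limma 3.58.1, other scaling, no filter, subsets and leaving out each library were alternatives. log2 CPM used a prior count of 2, and correlations 100000 permutations. The steps were tested on simulated counts.

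The members and gene lists were chosen with earlier results of these data known. Named genes are the members, the 3 genes most like each, and examples from the lists, some of which were picked after their values were seen.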

Additional observations from a re-analysis of the deposited data

Results flagged for a closer look

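In 5 of 20 groups of 4 to 10 libraries, 1 library lay far from the others by Dixon's criterion. Chance alone meets it in about 1 of 20 groups if the values are normally distributed and the groups independent. Here it was applied to CPM and folds without logarithms, and groups shared libraries. The 5 flags are therefore not to be read as more than chance gives. LMNB1 was 56.8 CPM in YAP1-MAML2-v2 replicate 2, an extra axial tumor, and the next highest YAP1-MAML2-v2 library had 17.9 CPM. The cell cycle list was also highest in that library, with a mean log2 CPM of 5.08. LMNA exceeded LMNB1 by 202.6 times in YAP1-MAML2-v2 replicate 5, an extra cranial tumor, and by 78.2 times in the nearest library. That library stood apart both among YAP1-MAML2-v2 tumors and among extra cranial tumors, and it had the lowest cell cycle mean, 0.29. KRT19 was 121.2 CPM in NLS-2SA-YAP1 replicate 2, and the nearest extra cranial tumor had 37.2 CPM. KRT8 was 0.0251 CPM in NLS-2SA-YAP1 replicate 3, a deposited value of 1, with 0 in the other extra cranial tumors.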

How the results depend on the processing

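Between constructs edgeR called 2 genes, against 685 with DESeq2, 95 with limma-voom, 4 with limma on log2 CPM, 4 with no filter, 4 in extra cranial libraries only, 1 with the file name tag as a term and 0 to 2 without single libraries. DESeq2 called 1 member, KRT18, and no other alternative called any. Between regions edgeR called 0 genes, DESeq2 31, and 0 to 1 were called without single libraries. The interaction called 1 gene with edgeR, 204 with DESeq2 including 1 member (NES), 4 with limma and 0 to 3 without single libraries. The cause of these differences in calls was not tested. The log2 fold changes of VIM, LMNA and NES between constructs and of VIM, LMNA and LMNB1 between regions kept their sign in every alternative run.

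Signs turned elsewhere. Between constructs, SYNM was -0.52 with a replicate block, -0.63 with the file name tag as a term, -0.76 in libraries without that tag (both added after the data were seen) and -0.47 to 0.97 without single libraries, LMNB1 -0.17 to 1.45, and the log2 ratio of LMNA over LMNB1 -0.094 to 0.74. Between regions, NES was -0.67 with limma-voom, -0.15 without the construct term, -1.34 in YAP1-MAML2-v2 libraries only and -1.32 to 1.62 without single libraries. SYNM was 0.021 with library totals alone, 0.68 in YAP1-MAML2-v2 libraries only and -1.31 to 0.91 without single libraries. The interactions of VIM and LMNA were -0.23 to 0.94 and -0.94 to 0.10 without single libraries. Library totals alone moved the median of all genes between regions to 0.14, from which region changes under that scaling are to be read.

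Replicate numbers 1 to 3 are shared by both constructs, and 3 libraries of each are too few to decide whether the numbers pair them. Deviations from the group means of same-numbered libraries correlated at 0.15, 0.34 and 0.02. NLS-2SA-YAP1 replicates 1 and 2 were closest to their own number. Replicate 3 of NLS-2SA-YAP1 was slightly closer to YAP1-MAML2-v2 replicate 1, at 0.054. The main fit did not pair the libraries. With the replicate block, which leaves 2 residual degrees of freedom, 2 genes and 0 of 7 tested members were called. The planned ratios of KRT8 and of VIM over KRT18 and the keratin correlations were not run, since values of 0 and 1 give no ratio. Sequencing depth is unknown, so no counting intervals are given and low keratin values cannot be told from 0. With 3 NLS-2SA-YAP1 libraries, 1 of them extra axial, construct differences within the extra axial region rest on a single library.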
